A study of Homo sapiens with 8 samples.

Results

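The comparison described here is between ribosomes recovered with prefoldin and total ribosomes of the same cells, that is, 2 PFD pulldown libraries against 2 PFD input libraries out of 8 libraries in the series. All 4 libraries came from U2OS cells, a human osteosarcoma line, with the genotype PFDN4-Halo, a monoclonal knock-in in which the prefoldin subunit PFD4 (gene PFDN4) carries a HaloTag at its C terminus. All groups received cycloheximide (100 µg per ml, 1 min) and the crosslinker DSP (2 mM, 30 min). After RNase I digestion ribosomes were collected below a sucrose cushion, and one portion served as input while anti-HaloTag beads took up the other. Every gene of the count table entered the comparison, and 14111 of 60664 genes passed the filter on low counts.

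Prefoldin is a hexameric co-chaperone of the cytosol that binds unfolded chains, many of them still on the ribosome, and passes clients such as actin and tubulin to the chaperonin TRiC. In selective ribosome profiling footprints of ribosomes on mRNA (RPFs, left over after nuclease digestion) are sequenced both from all ribosomes and from those that co-purify with a chaperone. A gene with more RPFs in the pulldown than in the input is therefore read from ribosomes over-represented in the recovered fraction. Counts per gene hold no position along the coding sequence, and a change in the number of mRNAs on ribosomes and a change in ribosomes per mRNA cannot be told apart in them.

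The libraries held 19129686 and 10254334 counts (inputs 1 and 2) and 9523128 and 28582306 counts (pulldowns 1 and 2). Of the 8 mesenchymal or osteoblast markers, 7 had at least 100 counts in every library, and all 5 blood markers were at 0. Pulldown 1 stood apart. It had at most 3 counts for 56 genes with at least 100 counts in each of the other libraries, against 0, 2 and 0 such genes in the others. DICER1 alone took up 2.31% of its counts, against 0.122% in pulldown 2 and at most 0.00375% in the inputs. The log2 ratios of the same-numbered pairs (pulldown 1 over input 1, pulldown 2 over input 2) correlated weakly across genes. Pearson's r was 0.19 and Spearman's rho 0.09 over 14111 genes that share library preparations and are not independent replicates. Over 8149 genes with at least 100 counts in every library, r was 0.11 and rho 0.04. Values below are counts scaled to the library size with TMM factors (normalized CPM), and fold changes are log2 of pulldown over input. Their standard error (SE) was derived from edgeR's quasi-likelihood test. It is the absolute log2 fold change divided by the square root of the F statistic.

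At a Benjamini-Hochberg adjusted p under 0.05, 7 genes (0.0496% of genes tested) were higher and 27 genes (0.191%) lower in the PFD pulldown. As a measure that needs no test, 2584 genes (18.3%) had both pulldown values above both input values and 2875 genes (20.4%) had both below. These shares are the background for every group described here, and they are not matched for counts or protein length. Among nuclear protein-coding genes, 15.3% lay above and 22.5% below in the fifth with the lowest mean counts. In the fifth with the highest mean counts, 23.9% lay above and 17.8% below. Of the 27 lower genes, 9 were mitochondrially encoded, 14 were nuclear protein-coding genes, 2 were small RNA genes and 2 were pseudogenes. The 7 higher genes were 4 protein-coding genes, 2 small RNA genes and 1 long non-coding RNA.

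Mitochondrially encoded genes formed the group with the most uniform change. The mitochondrial genome encodes 13 proteins, all subunits of the respiratory chain or the ATP synthase, which are made by mitochondrial ribosomes inside the organelle and not by the cytosolic ribosomes on which prefoldin acts. All 13 had both pulldown values below both input values, against 20.4% of all genes, and 9 of the 13 passed the threshold. The median log2 fold change of the 13 genes was −2.15, with −1.85 in pair 1 and −2.69 in pair 2, whereas the median over all genes tested was −0.05 in pair 1 and 0.01 in pair 2. Together they made up 0.556% and 0.566% of input counts and 0.166% and 0.105% of pulldown counts, and the widest exact 95% binomial interval, which covers counting error only, was 0.561% to 0.570% (input 2).

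MT-CO2, a core subunit of cytochrome c oxidase (chrM:7586-8269, hg38), had input values of 515 and 491 normalized CPM and pulldown values of 84.2 and 56.6. Its log2 fold change was −2.85 ± 0.19 (SE, edgeR adjusted p = 0.00336, n = 2 per group). MT-CO1, another core subunit of the same enzyme, went from 679 and 635 to 150 and 79.0, and MT-CO3 from 768 and 820 to 195 and 86.6. The groups lay far apart for each of these genes, with pulldown 2 below pulldown 1 each time. Cytochrome b of complex III (MT-CYB) went from 852 and 819 to 240 and 139, a log2 fold change of −2.15 ± 0.23 (adjusted p = 0.0149). Both ATP synthase subunits fell, MT-ATP6 with a log2 fold change of −2.54 and MT-ATP8 with −3.38, the latter from 168 and 157 to 21.3 and 10.6. These are the only genes of the ATP synthase on the mitochondrial genome, and MT-ATP8 showed the lowest fold change of the 13.

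The 7 subunits of complex I differed more among themselves. MT-ND3, MT-ND5 and MT-ND6 fell, with log2 fold changes of −2.26, −1.43 and −1.88 and adjusted p of 0.0301, 0.0218 and 0.00973. MT-ND1 (−1.34), MT-ND2 (−2.15), MT-ND4 (−1.07) and MT-ND4L (−1.93) did not pass the threshold, with adjusted p between 0.056 and 0.272, although their groups did not overlap either. MT-ND6, the only protein gene read from the other strand of the mitochondrial genome, went from 221 and 194 to 61.2 and 51.8, the closest pair, relative to their size, of pulldown values among the complex I genes. In the TRiC pulldown, compared with its own inputs from CCT4-Halo cells, the median of the same 13 genes was −2.95. The difference between both pulldowns was not tested.

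**Figure D1:**
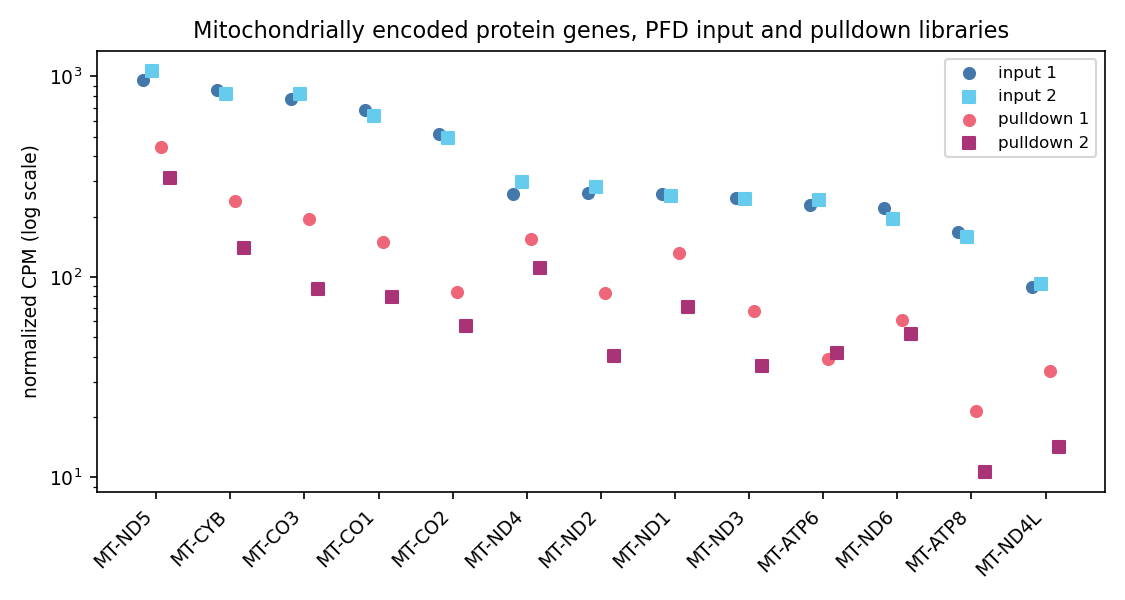
Normalized CPM (log axis) of the 13 mitochondrially encoded protein genes in each of the 4 PFD libraries, 1 point per library. Both pulldown points lie below both input points for every gene, from MT-ND5 (964 and 1067 in the inputs, 446 and 311 in the pulldowns) to MT-ND4L.

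Some of these genes share sequence, and the sequences below show where neighbouring or copied genes have bases in common. The end of MT-ATP8 is also the start of MT-ATP6. A fragment within these 46 bases (chrM:8527-8572, plus strand, hg38) lies in both, and its position alone does not assign it to either gene. The MT-ATP6 start codon and the MT-ATP8 stop codon are in capitals.
MT-ATP8 and MT-ATP6, shared bases: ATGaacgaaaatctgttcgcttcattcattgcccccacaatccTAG
A nuclear pseudogene of MT-ND2, MTND2P28 on chromosome 1, fell as well, from 49.36 and 50.03 to 7.33 and 4.63 (log2 fold change −3.07 ± 0.39, edgeR adjusted p = 0.0326, n = 2). It is identical to MT-ND2 at 1025 of 1042 aligned bases, with a longest identical run of 266 bases, and since unique alignments alone were counted, only fragments over a differing base can have been assigned to either copy. The window with the most differences, 5 in 90 bases, is given for both copies (chr1:630072-630161 and chrM:4902-4991, plus strand, hg38), with the differing bases in capitals.
MTND2P28: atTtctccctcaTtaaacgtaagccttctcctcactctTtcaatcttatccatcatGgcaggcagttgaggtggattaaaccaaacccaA
MT-ND2: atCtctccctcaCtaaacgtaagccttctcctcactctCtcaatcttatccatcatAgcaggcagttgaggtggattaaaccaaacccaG

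Nuclear-encoded genes of the organelle moved far less than those on its own genome. Mitochondrial ribosomal proteins, which are made in the cytosol and imported, had a median of −0.15 over 78 genes (−0.13 in pair 1 and −0.14 in pair 2). Of these, 28 (35.9%) had both pulldowns below both inputs and 9 (11.5%) both above, and none passed the threshold. MRPS10 of the small subunit went from 53.2 and 56.4 to 32.2 and 20.8 (−1.05 ± 0.31, adjusted p = 0.637). MRPS14 showed the opposite order, with 23.6 and 32.8 against 50.02 and 47.2, and MRPL14 of the large subunit differed little (0.06 ± 0.11). The values of MRPS10 and MRPS14 did not overlap between groups, and so members of the same ribosomal subunit lay on either side.

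The protein import machinery had a median of −0.10 over 29 genes, with 7 members below and 3 above. SAMM50, the core of the outer membrane sorting complex, had a log2 fold change of −0.29 ± 0.16, and the import receptor TOMM70 one of 0.18 ± 0.13. Nuclear-encoded subunits of oxidative phosphorylation had a median of −0.05 over 79 genes, of which 20 (25.3%) lay below and 8 (10.1%) above. ATP5ME of the ATP synthase membrane part went from 61.2 and 37.6 to 0 and 13.3, with opposite-strand exons over 61.3% of its own exon bases. Another subunit of that part, ATP5MF, went from 17.2 and 14.8 to 26.8 and 41.3. Neither passed the threshold, and the log2 fold change of ATP5ME was −2.82 with and −1.90 without pulldown 1.

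Several nuclear genes called lower had closely spaced replicates. Profilin-1 (PFN1), which binds actin monomers, went from 600 and 558 to 256 and 228 (log2 fold change −1.26 ± 0.11, edgeR adjusted p = 0.00973, n = 2 per group). TPM4, a tropomyosin that lies along actin filaments, went from 146 and 126 to 37.6 and 37.4, which gave −1.86 ± 0.19 (adjusted p = 0.0148). PPIB, a prolyl isomerase of the endoplasmic reticulum, went from 1248 and 1367 to 574 and 605 (−1.15 ± 0.09, adjusted p = 0.00556). The splicing factor SRSF2 had the smallest p of all genes, with 509 and 520 against 34.3 and 49.8 (−3.60 ± 0.19, adjusted p = 0.00151). The pseudogene HLA-H fell with a log2 fold change of −2.85, and its reads can be shared with related genes. In each of these genes the groups were separated by more than the spread within either group. Opposite-strand exons covered 26.6% of exon bases in PPIB, 27.7% in SRSF2 and 31.8% in HLA-H, against 6.9% in PFN1 and 6.5% in TPM4.

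Neither pulldown held a count of GABARAP or of the histone gene H2AC15. GABARAP had 729 and 498 input counts and H2AC15 had 519 and 377. With a floor of 3 counts per library, GABARAP was at least 200-fold and H2AC15 at least 148-fold lower. The zinc finger gene ZNF593 (579 and 285 input counts) and the U1 snRNA copy RNU1-138P (506 and 205) were also at 0 in both pulldowns. SPSB3, a substrate adaptor of ubiquitin ligases, had 364 and 366 input counts and 0 and 2 pulldown counts. H2AC15, ZNF593 and RNU1-138P were at 0 in all 4 libraries of the CCT4-Halo line as well. Counts of these genes were therefore found in the PFD inputs alone. In the CCT4-Halo line GABARAP had 22 and 17 input counts and 19 and 13 pulldown counts. SPSB3 had 25 and 38 input counts and 30 and 20 pulldown counts there. Both genes were thus high in the PFD inputs alone, and the cause was not tested. ZNF593 lies wholly under opposite-strand exons, RNU1-138P at 93.3% and SPSB3 at 66.9% of its bases, whereas H2AC15 has no such overlap.

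Overlap with genes on the opposite strand moved with many of these calls. Over 25% of the exon bases lay under opposite-strand exons for 11 of the 27 lower genes, none of the 7 higher genes and 4.51% of all genes tested. The median log2 fold change fell with the extent of overlap, from 0.02 over 8528 genes without any to −0.16 over 492 genes with over 25 to 50% and −0.48 over 100 genes with over 50 to 75%. Of the 21 genes with over 90% overlap, 18 (85.7%) lay below in the pulldown. In the TRiC comparison the medians of the bins with over 25 to 50% and over 50 to 75% were −0.11 and −0.14. GPATCH4, a nucleolar protein gene covered at 98.1% by NAXE, went from 1590 and 924 counts to 101 and 392, whereas NAXE itself had 939 and 672 against 432 and 1545. In the libraries of the CCT4-Halo line GPATCH4 had 88 and 96 input counts and 126 and 63 pulldown counts, so that it was high in the PFD inputs alone. NELFCD, a subunit of the negative elongation factor, is covered at 97.4% by CTSZ and went from 1957 and 1073 counts to 74 and 53, and POLR1G of RNA polymerase I, covered at 49.8% by ERCC1, from 1957 and 984 to 191 and 501. The sources used here do not give the strand setting of the count, and whether the PFD inputs were counted with another setting than the other libraries was not tested. Whether the lower pulldown values of such genes go with counts from the opposite strand in the inputs was not tested either. Input counts of the covering gene itself were 0 and 0 for ZNF593 (ZNF593OS) and PPIB (SNX22), and 16 and 0 for TUBA1B (TUBA1B-AS1). For NELFCD (CTSZ) they were 2351 and 1150, and for POLR1G (ERCC1) 2474 and 1154.

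The inputs of the other cell line were set beside the same calls. For 20 of the 21 nuclear genes that passed the threshold and were tested in both lines, the PFD pulldown lay nearer to the TRiC input than the PFD input did, against 47.9% of the 10121 genes whose mean count reached 100. The exception was C9orf163. For the mitochondrially encoded genes that passed it, this held for 1 of 9, MT-ND6. SRSF2 had normalized CPM of 31.9 and 32.1 in the TRiC inputs, near the 34.3 and 49.8 of the PFD pulldowns, and PFN1 had 239 and 237. Each line was normalized separately, and clone and library preparation cannot be told apart as sources of such differences. The called genes were picked for a large difference between PFD inputs and pulldowns and the background genes were not, so their shares are not matched. Nearer also does not mean near, since RNU5A-1 had 184 and 160 in the PFD pulldowns and 15.7 and 11.4 in the TRiC inputs.

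**Figure D2:**
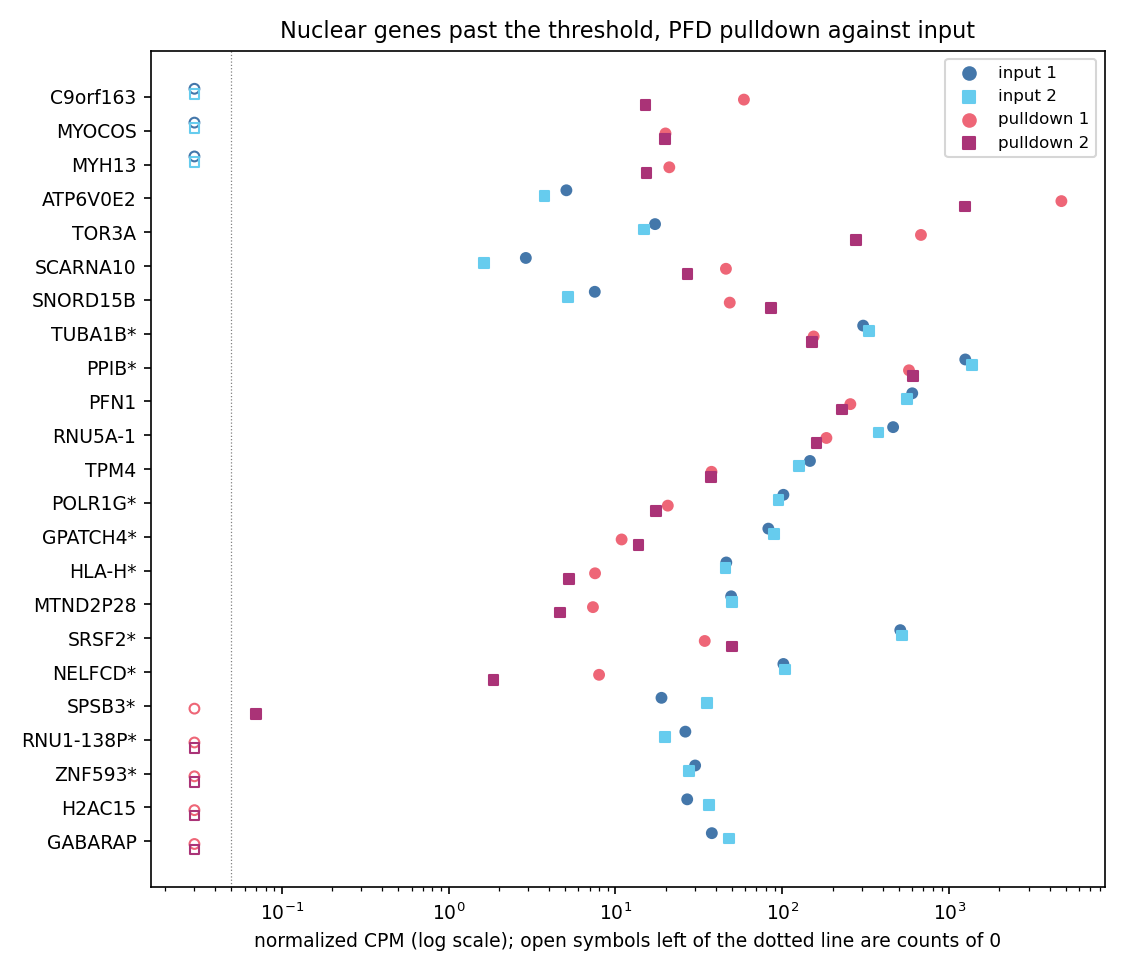
Normalized CPM (log axis) in each PFD library for the nuclear genes past the threshold that are named in the text, ordered by fitted fold change. Open symbols mark counts of 0 and an asterisk marks genes with over 25% of exon bases under opposite-strand exons. No gene has overlapping groups.

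Among the higher genes, TOR3A, an ATPase of the endoplasmic reticulum, went from 17.3 and 14.8 to 677 and 278 (log2 fold change 4.89 ± 0.42, edgeR adjusted p = 0.0074, n = 2). ATP6V0E2, a membrane subunit of the vacuolar proton pump, went from 5.08 and 3.76 to 4702 and 1241 (9.36 ± 0.73, adjusted p = 0.00556). MYH13, a myosin heavy chain of extraocular muscle, and MYOCOS, named as the opposite-strand neighbour of the myocilin gene, had no input counts and 195 and 438 counts, and 185 and 567 counts, in the pulldowns. They were at least 81.8-fold and 89.6-fold higher with the same floor, and the long non-coding RNA C9orf163 (0 and 0 against 546 and 432) at least 166-fold. Pulldown 1 was the higher pulldown for TOR3A, ATP6V0E2, MYH13 and C9orf163 on the normalized scale. In the TRiC inputs ATP6V0E2 had 404193 and 155392 counts, MYH13 had 122 and 166, and C9orf163 had 71 and 27. DICER1, the ribonuclease that processes microRNA precursors, went from 37.2 and 27.9 to 23707 and 1219, but with that spread did not pass the threshold (8.57 ± 1.35, adjusted p = 0.0853). WDR3, a factor of small ribosomal subunit assembly, had 278 and 243 against 2042 and 356 (2.20 ± 0.65, adjusted p = 0.631). Other protein-coding genes with at least 100 counts in every library and the largest separated increases, MYO7A, SYDE2, SHANK3, GTF3A, ZNF704 and KLF11, had log2 fold changes between 1.33 and 1.71 with adjusted p of at least 0.528.

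Small RNA genes were called in both directions. They encode no protein, and reads matching a non-coding RNA library were removed before counting. The counts left on them therefore cannot be read as ribosomes translating these genes. RNU5A-1 encodes a U5 small nuclear RNA of the spliceosome, and SNORD15B a C/D box small nucleolar RNA, a class that guides ribose methylation. RNU5A-1 fell from 461 and 377 to 184 and 160 (−1.29 ± 0.14, edgeR adjusted p = 0.0185, n = 2). SNORD15B rose from 7.52 and 5.21 to 48.4 and 85.6 (3.39 ± 0.41, edgeR adjusted p = 0.0264). The Cajal body RNA SCARNA10 rose from 2.90 and 1.64 to 45.92 and 26.98 (3.97 ± 0.55, edgeR adjusted p = 0.0442). In the TRiC inputs SNORD15B had 27.6 and 21.5 and SCARNA10 had 58.8 and 35.5, each line normalized on its own. Both RNAs were thus lowest in the PFD inputs, and the cause was not tested. SNORD104, another C/D box RNA, had 463 and 424 against 789 and 681 and missed the threshold (0.73 ± 0.11, adjusted p = 0.0757).

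U4 small nuclear RNA has a pair of near-identical genes on chromosome 12 that differed in fold change, and both sequences (GENCODE release 44) are shown with the 4 bases at which they differ in capitals (chr12:120293097-120293237 and chr12:120291763-120291903, minus strand, hg38).
RNU4-1: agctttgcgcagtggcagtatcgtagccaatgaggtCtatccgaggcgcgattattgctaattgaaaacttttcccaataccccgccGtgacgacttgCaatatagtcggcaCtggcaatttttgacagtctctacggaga
RNU4-2: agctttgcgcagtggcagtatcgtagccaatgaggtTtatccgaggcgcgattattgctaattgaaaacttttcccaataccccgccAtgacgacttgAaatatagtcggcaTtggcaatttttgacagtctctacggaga
RNU4-1 had 23.8 and 18.9 against 58.6 and 118 (2.05 ± 0.36, edgeR adjusted p = 0.139, n = 2). RNU4-2 had 1232 and 1539 against 984 and 1834 with overlapping groups (0.03 ± 0.25). Only fragments over a differing base separate these genes, so their split is uncertain. Over all 41 C/D box RNAs tested the median was −0.92, but it was 0.50 over the 7 with at least 100 counts in every library, and over 116 snRNA genes and copies it was −1.68 against −0.09 over 8. Most members of both lists therefore had few counts, and 49 H/ACA and Cajal body RNAs had a median of 0.24.

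Described by protein class, 26 of 67 gene lists had at least 4 members tested and medians of the same sign in the fit, in both same-numbered pairs and without any 1 library, 12 of them higher and 14 lower. Of the 26, 21 also lay on that side of the median of all genes in both pairs, and the 5 that did not were Hsp90 and co-chaperones, nuclear-encoded oxidative phosphorylation, small actin-binding proteins, ubiquitin and E2 enzymes, and cullin ligases. Apart from the mitochondrially encoded, small RNA and ATG8 lists, medians were between −0.18 and 0.22, and the called members of the 26 lists were 9 mitochondrially encoded genes, 2 snRNA genes and 1 each of the myosins, small actin-binding proteins, ATG8 family, C/D box RNAs and H/ACA and Cajal body RNAs. Groups are given by medians and by members whose groups did not overlap, beside 18.3% above and 20.4% below over all genes. Among nuclear protein-coding genes of 1200 or more residues these shares were 24.1% above and 13.9% below. Giant crosslinkers had a median length of 2798 residues and collagens one of 1551.5.

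**Figure D3:**
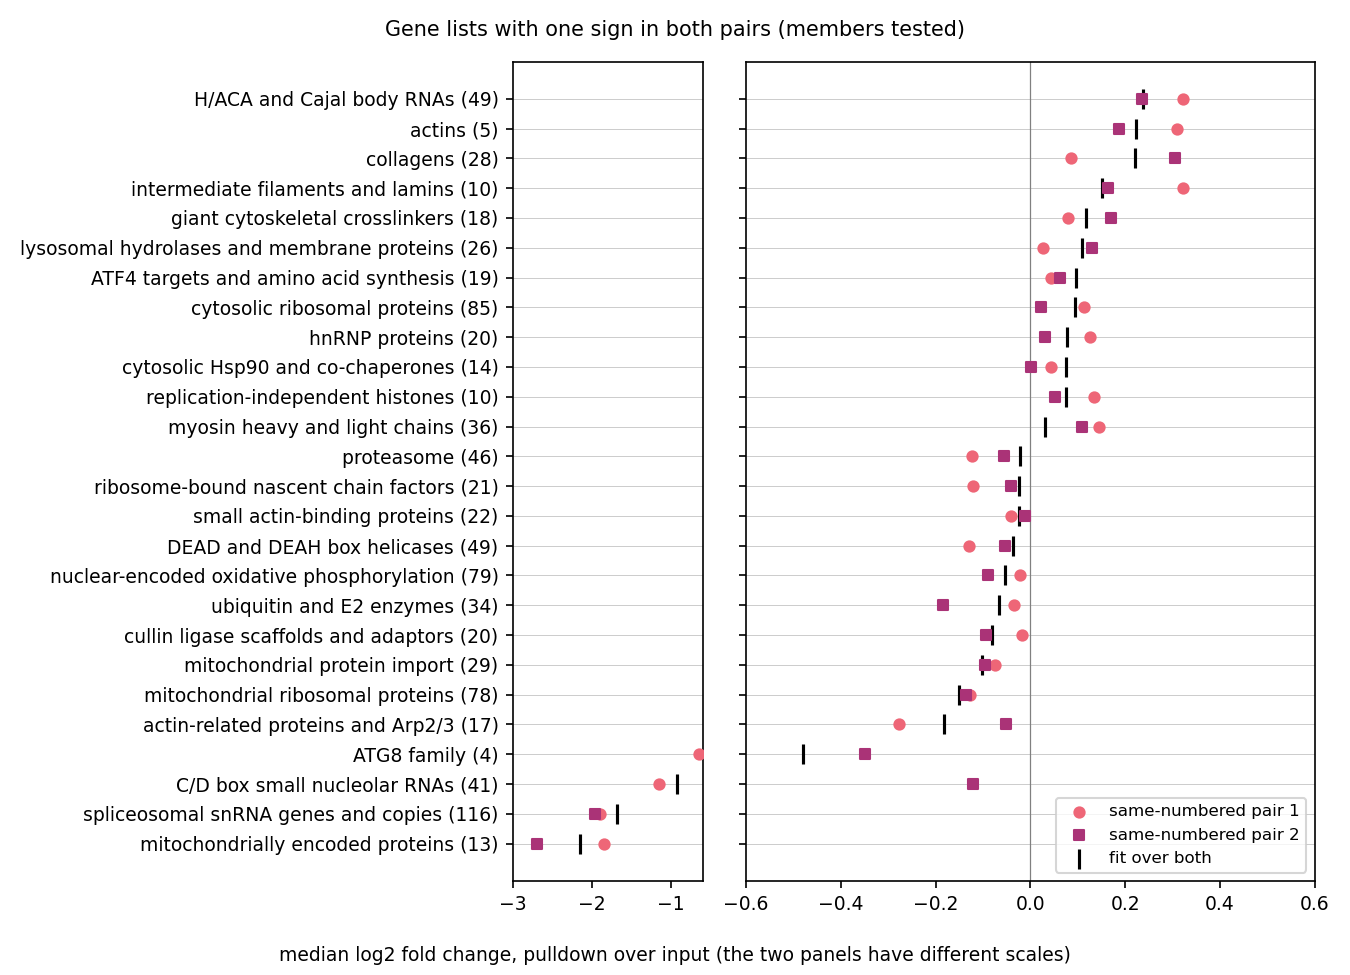
Median log2 fold change of the 26 gene lists with the same sign in both pairs, as fitted (bars) and in pair 1 (circles) and pair 2 (squares). The left panel covers the larger negative range, and the number of members tested is in parentheses. Mitochondrially encoded proteins lie lowest (−2.15), and H/ACA and Cajal body RNAs lie highest (0.24).

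Giant crosslinkers, proteins that join actin or intermediate filaments to each other, had a median of 0.12 over 18 genes (0.08 and 0.17 in pairs 1 and 2), with 8 (44.4%) above and 0 below. Plectin (PLEC) had 6896 and 6735 against 8210 and 8931 (0.33 ± 0.06, adjusted p = 0.139). Filamin A (FLNA) had 6121 and 6335 against 7226 and 7193 (0.21 ± 0.05, adjusted p = 0.471), and filamin C (FLNC) 3267 and 3175 against 3745 and 3670. None of these genes passed the threshold, and in each the difference exceeded the range within either group.

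Collagens, the triple-helical proteins of the matrix, had a median of 0.22 over 28 genes (0.09 and 0.31), with 10 (35.7%) above and 2 (7.14%) below. COL1A1 had 4469 and 4347 against 4884 and 5424 (0.23 ± 0.07, adjusted p = 0.659). The basement membrane chains COL4A1 and COL4A2 had log2 fold changes of 0.32 ± 0.09 each, with adjusted p of 0.574 and 0.584. COL4A4 had the highest (1.22 ± 0.61) and COL17A1 the lowest value (−0.52 ± 0.81) among collagens of mean count 100 or more. Lysosomal proteins had a median of 0.11 over 26 genes, with 10 (38.5%) above and 2 (7.69%) below. Among them, prosaposin (PSAP) had 2017 and 1924 against 2199 and 2377, cathepsin B (CTSB) 798 and 834 against 972 and 927, and LAMP1 809 and 799 against 898 and 907. Acid ceramidase (ASAH1) lay on the other side, at 85.4 and 72.3 against 36.2 and 56.6 (−0.76 ± 0.27, adjusted p = 0.706).

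Cytosolic ribosomal proteins had a median of 0.10 over 85 genes (0.11 and 0.02), and 31 (36.5%) lay above and 14 (16.5%) below. RPL8 had 1557 and 1694 against 1844 and 1659, with overlapping groups. RPL39L, a paralogue of RPL39, had the highest (0.99 ± 0.43) and RPL36A the lowest log2 fold change (−1.56 ± 1.29) among members of mean count 100 or more. RPL36A had 1 count in pulldown 1 and 331 in pulldown 2. Intermediate filaments and lamins had a median of 0.15 over 10 genes with 4 above and 1 below. Nestin (NES) had 130 and 139 against 191 and 164, and lamin B1 (LMNB1) 413 and 416 against 444 and 459. Vimentin (VIM), the main intermediate filament of mesenchymal cells, was the member below, at 2051 and 1896 against 1487 and 1705 (−0.31 ± 0.09, adjusted p = 0.637). The hnRNP proteins, which package nuclear RNA, had a median of 0.08 over 20 genes with 7 (35%) above and 1 (5%) below, and HNRNPC (121 and 120 against 167 and 156) had their highest value (0.42 ± 0.15).

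Actin genes and those of their partners were not uniform. ACTG1, cytoplasmic gamma-actin, had 2762 and 2715 against 3425 and 3088 (0.25 ± 0.07, adjusted p = 0.626). ACTB, cytoplasmic beta-actin, had 7997 and 8462 against 8660 and 7974, with overlapping groups (0.02 ± 0.06). ACTG2 of smooth muscle, at few counts, had 1.40 and 0.482 against 7.76 and 8.63 (3.09 ± 1.16, adjusted p = 0.706), and shares much of its sequence with the other actins. Actin-related proteins and the Arp2/3 complex, which starts branched filaments, had a median of −0.18 over 17 genes (−0.28 and −0.05 in pairs 1 and 2). Of these genes, 7 (41.2%) lay below and 2 (11.8%) above. Their difference from the actins was not tested. ACTR2 and ACTR3, the actin-like core of Arp2/3, had log2 fold changes of −0.30 ± 0.14 and −0.06 ± 0.09, and ARPC2 one of −0.13 ± 0.11. ACTR5 and ACTR8, which belong to the INO80 chromatin remodeller, were at 1.00 ± 0.38 and −0.69 ± 0.40. Cofilin (CFL1), which severs filaments, had 1236 and 1283 against 879 and 816 (−0.57 ± 0.08, adjusted p = 0.061). With PFN1 it accounted for the lowest values of the small actin-binding proteins, whose median over 22 genes was −0.02, while CNN3 and PFN2 lay at 0.15 and 0.37. The myosin median was 0.03 over 36 genes and changed sign with library totals (−0.01), and MYH9, the non-muscle heavy chain, had 5533 and 5846 against 6175 and 5989.

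Of 46 proteasome genes, 13 (28.3%) lay below and 2 (4.35%) above, with a median of −0.02 (−0.12 and −0.06). The immunoproteasome subunits PSMB10 and PSMB9 had the lowest (−0.86 ± 0.42) and highest value (1.13 ± 0.58) among proteasome genes of mean count 100 or more. Of 20 cullin ligase genes 7 (35%) lay below and 1 (5%) above. DDB1, the adaptor of CUL4 ligases, had 799 and 791 against 714 and 777, FBXW11 had −0.64 ± 0.31 and the substrate receptor VHL 0.46 ± 0.32. Of 34 ubiquitin and E2 genes, 9 (26.5%) lay below and 3 (8.82%) above. The ATG8 family, ubiquitin-like proteins of autophagosomes, had GABARAP, GABARAPL1 (−0.83 ± 0.34) and GABARAPL2 (−0.13 ± 0.15) below, and MAP1LC3B above at 29.4 and 26.8 against 99.1 and 60.2 (1.498 ± 0.30, adjusted p = 0.247). Only GABARAP passed the threshold, and as given above it was high in the PFD inputs alone.

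**Figure D4:**
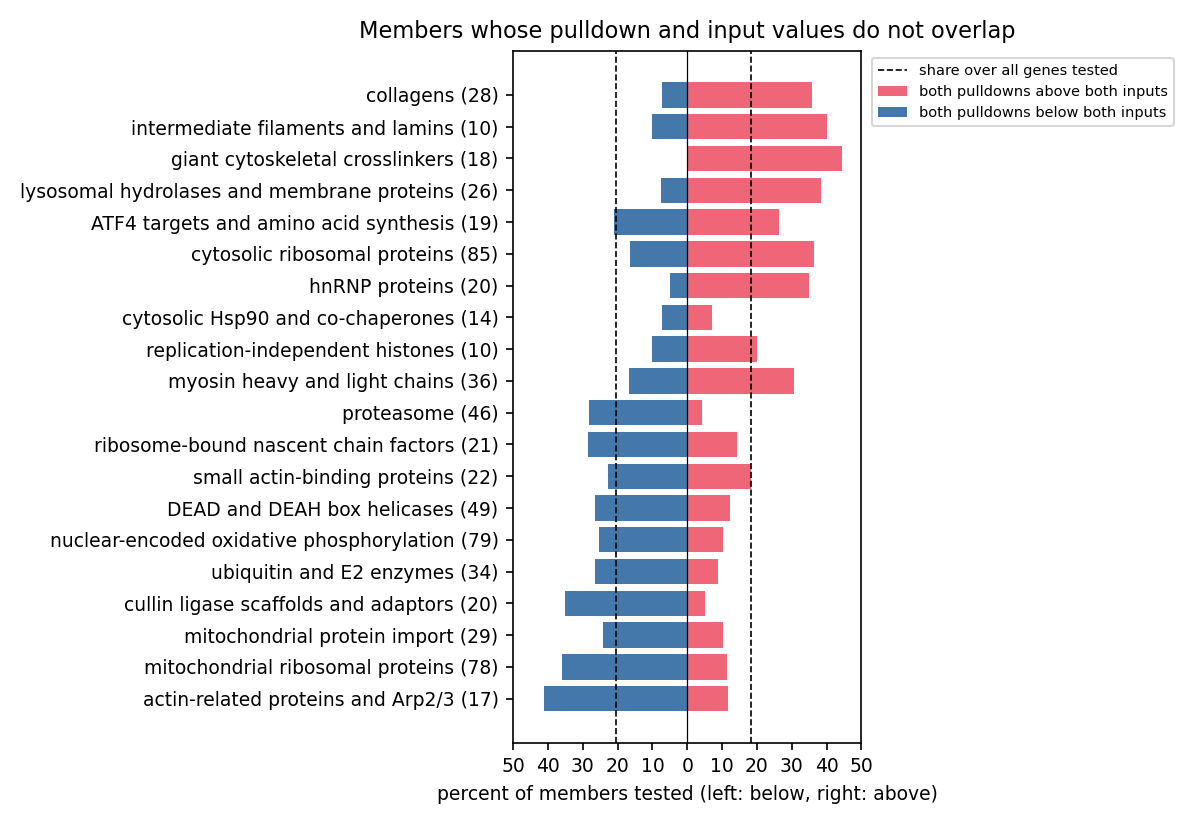
Share of members tested whose 2 pulldown values lie both above (right) or both below (left) the 2 input values, for protein lists with at least 10 members tested, without the mitochondrially encoded genes. Dashed lines mark the shares over all genes (18.3% above, 20.4% below). Giant crosslinkers (44.4% above, 0 below) and actin-related proteins (41.2% below) reach farthest.

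The 8 TRiC subunits had log2 fold changes between −0.09 and 0.08. PFDN4, the tagged subunit, had 11.6 and 9.25 against 12.5 and 10.9 (0.17 ± 0.57), and PFDN2 had 134 and 118 against 142 and 151 (0.22 ± 0.15). PFDN1 (−0.64 ± 0.39), PFDN6 (−0.52 ± 0.38) and VBP1 (−0.31 ± 0.39), which encodes PFD3, had their lowest value in pulldown 1, and PFDN5 had 66, 0, 4 and 84 counts. None of the 14 genes passed the threshold. Hsp90 and its co-chaperones had a median of 0.07 over 14 genes with 1 above and 1 below. Factors that meet the chain at the tunnel exit had a median of −0.02 over 21 genes, with 6 below and 3 above. NACA, the alpha subunit of the nascent polypeptide-associated complex, had 246 and 229 against 208 and 208 (−0.19 ± 0.12, adjusted p = 0.866), while its partner BTF3 had 232 and 279 against 253 and 270. SRP72 of the signal recognition particle had −0.23 ± 0.12 and the N-myristoyltransferase NMT2 −0.45 ± 0.32.

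Further lists showed small medians. Replication-independent histones had 0.07 over 10 genes, with H3-3B at 0.15 ± 0.10 and H2AZ1, at 291 and 302 against 233 and 221, at −0.39 ± 0.12 (adjusted p = 0.653). DEAD and DEAH box helicases, which unwind RNA, had −0.04 over 49 genes, 13 (26.5%) of them below and 6 (12.2%) above. Among members of mean count 100 or more they ran from DDX39B (−0.75 ± 0.36) to DDX11 (0.58 ± 0.32). ATF4 targets, genes of the amino acid response, had 0.10 over 19 genes, with the amino acid transporter chain SLC3A2 at 0.27 ± 0.12, CEBPB at 0.76 ± 0.31 and SESN2 at −0.47 ± 0.33. The inner membrane import factor TIMM44 was at 0.40 ± 0.22, ATP5F1A, the alpha subunit of the ATP synthase, at 0.16 ± 0.12, the H/ACA RNA SNORA65 at 0.28 ± 0.15 and the C/D box RNA SNORD12C at −3.22 ± 1.07, and HNRNPF was at 0.11 ± 0.08. None of these genes passed the threshold. The tubulin list had medians of 0.10 in pair 1 and −0.01 in pair 2 over 16 genes and was not among the 26. Its member TUBA1B was called lower, from 305 and 331 to 154 and 150 (−1.06 ± 0.12, edgeR adjusted p = 0.0218). Opposite-strand exons covered 44% of its exon bases. In the TRiC inputs TUBA1B had 149 and 154, and in the TRiC pulldowns 148 and 125. It was thus high in the PFD inputs alone, and the cause was not tested.

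Across protein classes, the length of the encoded protein went with the direction of the difference. The median log2 fold change was −0.10 over 798 genes for proteins under 150 residues, −0.03 over 2346 genes from 150 to under 300, 0.00 over 4757 genes from 300 to under 600, 0.00 over 3403 genes from 600 to under 1200, and 0.06 over 1335 genes for 1200 or more residues. Below 150 residues 26.9% of genes lay below and 15.4% above, and from 1200 residues 13.9% lay below and 24.1% above. Medians rose from bin to bin in each pair, from −0.09 to 0.02 in pair 1 and from −0.09 to 0.09 in pair 2. Spearman's rho between length and log2 fold change across 12639 genes was 0.07, which is weak, and genes of a library share its depth and composition. Without pulldown 2 the median of the longest bin was 0.02. Among 8072 genes with at least 100 counts in every library the medians ran from −0.07 to 0.06. In that set they ran from −0.11 to 0.08 in pair 2 but from 0.00 to 0.03 in pair 1, where the longest bin did not exceed the one before it (0.04), and rho was 0.13 in pair 2 and 0.03 in pair 1. In the TRiC comparison the medians of the same bins ran from −0.31 to 0.20, and the difference between both comparisons was not tested. The GC content of the third codon position had a rho of 0.14 with the log2 ratio in pair 1 and of 0.00 in pair 2, so that trend too differed between pairs.

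**Figure D5:**
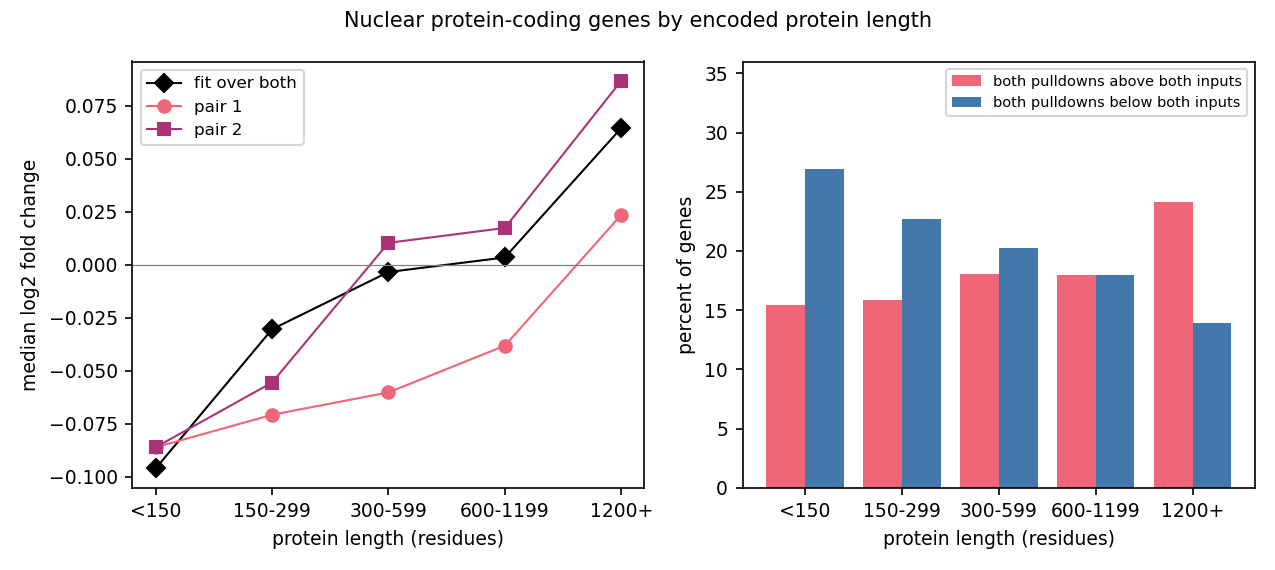
Left, median log2 fold change of nuclear protein-coding genes by length of the encoded protein in residues, as fitted and in each same-numbered pair. Right, percent of genes in each bin with both pulldowns above or both below both inputs. From the shortest to the longest bin the share below goes from 26.9% to 13.9% and the share above from 15.4% to 24.1%.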

How the data were processed

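Ribosome-protected fragments of 2 PFD input and 2 PFD pulldown libraries were analysed. The deposited counts are whole-number counts per gene without normalization. The authors trimmed and demultiplexed reads, handled molecular identifiers with UMI-tools, removed non-coding RNA with Bowtie2 2.4.2 and counted unique STAR 2.7.10a alignments to hg38 with at most 2 mismatches. The annotation release and strand setting are not given in the sources used here. Labels and methods state 2 biological replicates, without saying which pulldown came from which input.

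Counts were fitted with edgeR 4.0.16 in R 4.3.3 (filterByExpr, TMM, quasi-likelihood test, Benjamini-Hochberg adjusted p under 0.05, no replicate block), on the 4 PFD libraries only. Pair values are differences of log2 CPM with a prior count of 2. Names, positions, lengths and overlaps came from GENCODE release 44 (60463 of 60664 identifiers). DESeq2 1.42.0, RLE size factors, library totals, a replicate block, other filters and gene sets, and leaving out each library were tried as alternatives.

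Named genes were those called whose mean count reached 100, members of the prefoldin, TRiC, actin, ATG8 and NAC lists (partly as ranges), the 3 most counted and the extreme members of each described list, and the 10 highest and 10 lowest separated protein-coding genes with at least 100 counts in every library. Not all of these are printed, and which were left out was decided after their values were seen. MT-ND1, MT-ND2 and MT-ND4L complete their list. Members and lists were chosen with earlier results of these data known. Among the genes picked, 3 are not reported here.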

Additional observations from a re-analysis of the deposited data

Results flagged for a closer look

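Of the 30 genes that passed the threshold in the PFD comparison and were also tested in the TRiC comparison, 19 lay on the same side in both without overlapping groups and 5 lay on opposite sides without overlapping groups. These 5 are given because every pulldown of one line moved against every pulldown of the other. The difference was not tested, and each line was normalized on its own.

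TOR3A rose in the PFD pulldown (17.3 and 14.8 to 677 and 278 normalized CPM) and went from 669 and 579 to 139 and 129 in the TRiC pulldown, a log2 fold change of −2.22. MYOCOS had 0 counts in both PFD inputs and 219 and 174 counts in the TRiC inputs, with a TRiC log2 fold change of −0.54. SRSF2 (0.66 in the TRiC pulldown) and TPM4 (0.22) were higher in the PFD inputs than in any other library. SRSF2 had 509 and 520 there against 31.9 to 54.1 in the TRiC libraries, and TPM4 146 and 126 against 30.6 to 41.3. RNU5A-1 fell in the PFD pulldown and rose in the TRiC pulldown from 15.7 and 11.4 to 41.5 and 34.5, a log2 fold change of 1.5.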

How the results depend on the processing

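Counts of genes past the threshold depended on the setting (7 higher and 27 lower as reported, from 434 and 544 at an unadjusted p under 0.05). They were 44 and 90 with the same-numbered libraries as a replicate block, 59 and 93 without a filter, and 256 and 295 with DESeq2, whose dispersion trend was fitted locally. Without genes with over 25% opposite-strand overlap 16 were lower, and without any overlap, an alternative chosen after seeing the data, 2 were higher and 12 lower. Leaving out each library gave 28 to 1081 higher and 43 to 1353 lower genes, the highest without pulldown 2 and, at 116 and 279, without pulldown 1, where the lone pulldown is assumed to vary like the inputs. Deviations of same-numbered libraries from their group means did not go together across genes (correlation −0.01). This cannot decide whether these libraries were prepared as pairs, since noise alone can bring such a value near 0. Of the 32 called genes named, all kept the direction in every setting in which they were tested. SCARNA10 missed the threshold without overlapped genes (edgeR adjusted p = 0.0554 and 0.0523).

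List medians moved as follows. With the replicate block they were 0.0436 for actins, −0.13 for mitochondrial ribosomal proteins, −0.16 for mitochondrial import, −2.35 for snRNA genes and −0.0068 for myosins, a change of sign. With library totals they were 0.0402 for Hsp90, −0.18 for mitochondrial ribosomal proteins, −0.14 for import, −0.0580 for small actin-binding proteins, 0.0617 for ATF4 targets and −0.0057 for myosins, again a change of sign. Mitochondrial ribosomal proteins were at −0.14 with RLE and with DESeq2, −0.16 without a filter, −0.16 with at least 10 counts and −0.0945 without overlapped genes. With at least 10 counts in every library, import was at −0.13, ATG8 at −0.13, snRNA genes at −0.0457 and C/D box RNAs at 0.54, a change of sign that also held with at least 100 counts (0.50). With at least 100 counts actins were at 0.13, myosins at −0.0181, ATG8 at −0.13 and snRNA genes at −0.0936. Without overlapped genes actins were at 0.13 and snRNA genes at −1.63. Without any overlap actins were at 1.53, myosins at 0.15, giant crosslinkers at 0.0438, nascent chain factors at −0.12, cullin ligases at −0.28, ATG8 at −0.15 and snRNA genes at −1.63.

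Leaving out 1 library at a time, medians ranged from 0.0432 to 0.0924 for ATF4 targets, −0.70 to −0.30 for ATG8, −1.18 to −0.15 for C/D box RNAs, −0.12 to −0.0138 for helicases, 0.20 to 0.30 for H/ACA RNAs and 0.0688 to 0.23 for actins. They ranged from 0.0084 to 0.11 for Hsp90, 0.16 to 0.27 for intermediate filaments, −0.22 to −0.0881 for import, −0.20 to −0.12 for mitochondrial ribosomal proteins, 0.0405 to 0.11 for myosins and −0.12 to −0.0303 for the proteasome. For replication-independent histones they were 0.0096 to 0.0448, for nascent chain factors −0.10 to −0.0615, for small actin-binding proteins −0.0552 to −0.0171 and for snRNA genes −2.51 to −1.14. The hnRNP median was 0.0211 and that of cytosolic ribosomal proteins 0.0439 without pulldown 1, where lysosomal proteins were at 0.18. Without pulldown 2 collagens were at 0.14, lysosomal proteins at 0.0714 and actin-related proteins at −0.0904. Without input 1 oxidative phosphorylation was at −0.10 and ubiquitin and E2 enzymes at −0.13.

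By protein length, library totals gave −0.13 under 150 residues, −0.0632 from 150 to under 300 and −0.0302 from 600 to under 1200, a change of sign. At least 100 counts gave −0.0773 under 150 and 0.0024 from 300 to under 600 residues, also a change of sign. Leaving out 1 library gave −0.13 to −0.0827 under 150, −0.0756 to −0.0375 from 150 to under 300, −0.0683 to 0.00015 from 300 to under 600, −0.0440 to 0.0104 from 600 to under 1200 and 0.0241 to 0.0819 for 1200 or more residues, the lowest of these without pulldown 2. Mitochondrially encoded genes made up 0.564% and 0.573% of protein-coding counts in inputs 1 and 2.

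The sign of these genes also changed. PFDN5 was at 1.44 with the block and between −1.98 and 7.78 without 1 library, and VBP1 (−0.31 as reported) between −1.18 and, without pulldown 1, 0.22. ACTB was at −0.0192 with library totals, −0.0075 without any overlap and between −0.0484 and 0.0688 without 1 library. BTF3 was at −0.0027 with totals and between −0.11 and 0.16 without 1 library. RNU4-2 was at −0.0351 with the block, −0.0036 with totals and between −0.497 and 0.402 without 1 library. The causes were not tested.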
